A study of Mus musculus with 9 samples.

Results

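From the methylomes of mouse embryonic stem cells (ESCs), 744 windows of 1 kb were chosen by their measured methylation, for a large loss in *Dnmt3b* KO ESCs that left them at or below their level in *Dnmt3a* KO ESCs. A window was eligible if it held 5 or more CpGs with at least 5 reads in each genotype, which left 1067454 windows. Members had a mean methylation of at least 70% in WT ESCs, a level at least 30 points lower in *Dnmt3b* KO ESCs, and a level in *Dnmt3b* KO ESCs that was not above that in *Dnmt3a* KO ESCs. Of the 998003 eligible windows with WT methylation of at least 70%, 6894 (0.691%) lost 30 points or more in *Dnmt3b* KO ESCs, and 744 (0.0745%, or 10.8% of the 6894) also met the last condition. The other 6150 windows with this loss, in which *Dnmt3a* KO ESCs had the lower level, are called shared-loss windows here and serve as a comparison.

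The study profiled J1 ESCs of strain 129S4/SvJae by whole-genome bisulfite sequencing (WGBS), in which unmethylated cytosines are converted and methylated ones are not. The 3 genotypes WT, *Dnmt3a* KO and *Dnmt3b* KO were compared, all grown with serum and LIF on gelatin, with 3 libraries each. The 3 libraries of each genotype had been combined into 1 table by the authors, so there was no replicate error and no difference between genotypes could be tested. Whether each knockout line was derived from 1 clone is not given in the sources used here.

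DNMT3A and DNMT3B are the de novo DNA methyltransferases, which add methyl groups to unmethylated CpGs, while DNMT1 copies methylation after replication. In serum-grown ESCs both are expressed, and DNMT3B is known for its recruitment to bodies of transcribed genes marked with H3K36me3, for the methylation of repeats, and for its loss in the human ICF syndrome, where satellite repeats are hypomethylated. The enzymes also differ in their preference for the bases that follow the CpG, with DNMT3B known for a preference for a purine after the CpG and DNMT3A for a pyrimidine.

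Reads of the WT table ended within chromosome 4, so that the windows came from chromosomes 1 to 3, 10 to 19 and a part of 4, that is 14 chromosomes. The median depth of a CpG on these was 20 to 23 reads in WT ESCs, 18 to 22 without *Dnmt3a* and 19 to 22 without *Dnmt3b*. At the targeted genes, *Dnmt3a* KO ESCs had no read over 12 consecutive CpGs of *Dnmt3a* (chr12:3902401-3902802, mm9), where WT had 31.4 reads per CpG, and *Dnmt3b* KO ESCs had no read over 30 consecutive CpGs of *Dnmt3b* (chr2:153502553-153504282), where WT had 31.5.

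The sequences that recurred among the members were found by listing stretches of 24 bases, the most frequent first, that were each in 8 or more members. Among the CpG-rich members 3 such stretches stood out, with 1538 to 6947 copies each in the genome. They are shown because 117 of the 137 members with 20 or more CpGs held at least 1 of them. The stretches were picked from these members, and the share of other CpG-rich windows with any of them was not taken. CpGs are in capitals.
Shared sequence 1: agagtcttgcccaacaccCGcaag
Shared sequence 2: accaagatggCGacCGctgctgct
Shared sequence 3: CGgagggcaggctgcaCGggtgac
For the members themselves, stretches of 200 bases with the most counted CpGs are given from the + strand of mm9, again with CpGs in capitals. The first comes from a window centred in an intron of *Gtse1* (chr15:85693797-85693996), which had the largest loss of the members with 10 or more counted CpGs. The second comes from a window centred in an intron of *Slc38a2* (chr15:96526020-96526219), the gene with the most members. Both windows hold almost no repeated sequence. The last comes from a CpG-rich repeated window between genes (chr3:6305345-6305544) and holds shared sequence 1.
*Gtse1*: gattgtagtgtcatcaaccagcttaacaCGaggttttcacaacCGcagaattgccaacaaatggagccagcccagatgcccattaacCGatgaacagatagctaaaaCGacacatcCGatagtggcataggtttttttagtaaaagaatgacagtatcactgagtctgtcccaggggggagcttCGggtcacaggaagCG
*Slc38a2*: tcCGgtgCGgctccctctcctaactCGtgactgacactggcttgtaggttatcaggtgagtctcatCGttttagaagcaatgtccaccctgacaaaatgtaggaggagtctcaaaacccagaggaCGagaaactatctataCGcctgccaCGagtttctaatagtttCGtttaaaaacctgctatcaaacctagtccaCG
Repeated window of chromosome 3: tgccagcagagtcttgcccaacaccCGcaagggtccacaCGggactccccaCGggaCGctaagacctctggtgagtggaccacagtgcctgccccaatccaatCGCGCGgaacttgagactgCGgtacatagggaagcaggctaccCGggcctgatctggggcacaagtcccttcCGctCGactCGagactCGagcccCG
The *Gtse1* stretch held 7 CpGs, the *Slc38a2* stretch 9 and the repeated stretch 14.

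The levels that chose the members are given as a description. Over the 744 members the median methylation was 88.9% in WT ESCs, 58.3% without *Dnmt3a* and 52.3% without *Dnmt3b*. In all windows of WT at least 70% the medians were 92.1%, 57.9% and 85.9%. Over the pooled members the *Dnmt3a* KO median was thus within 1 point of that of all windows, which did not hold for the CpG-rich members described below. The loss in *Dnmt3b* KO ESCs ranged from 30.02 to 77.3 points with a median of 34.6, and *Dnmt3b* KO ESCs lay below *Dnmt3a* KO ESCs by a median of 5.02 points. This gap was under 5 points in 368 members and 10 points or more in 165.

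The members were also far below WT in *Dnmt3a* KO ESCs. A drop of 30 points or more in *Dnmt3a* KO ESCs was seen in 352 members (47.3%), against 61.3% of all windows of WT at least 70%. The rule kept this drop from exceeding the one in *Dnmt3b* KO ESCs, so that the choice itself favoured a lower share. The 6150 shared-loss windows, whose order of the KOs was fixed by their definition, had a *Dnmt3a* KO median of 29.95% and a *Dnmt3b* KO median of 51.9%. Near the threshold with 10 or more counted CpGs, the 3 windows just inside lost 30.02 to 30.04 points and the 3 just outside 29.89 to 29.99 points.

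Counting error was large for a single window. Reads of a window were pooled over its CpGs for 95% Wilson intervals, which cover counting error only. A read over several CpGs was counted at each of them, and PCR-amplified reads are not independent molecules. The intervals here and below are therefore too narrow even for counting error. Those of *Dnmt3b* KO and WT ESCs lay apart in 737 of the 744 members. The reads are those that the rule used, so the separation from WT and the order of the KOs were largely fixed by the choice. *Dnmt3b* KO lay below *Dnmt3a* KO with intervals that did not overlap in 52, and above it in 2 whose mean over CpGs was lower but whose share of reads was higher. In the remaining members the intervals of the KOs overlapped.

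Whether such windows are lower without *Dnmt3b* than without *Dnmt3a* was examined by applying the rule to a part of the reads or CpGs and measuring the windows so selected in the rest. These windows were selected anew and are not the set of 744 members. In windows selected with the same rule on plus-strand reads alone, the minus strand gave medians of 90.3% in WT ESCs, 53.4% without *Dnmt3a* and 79.6% without *Dnmt3b*, over 625 windows. *Dnmt3b* KO was not above *Dnmt3a* KO in 39 of them (6.24%), against 1.55% of all windows. With the strands exchanged, the medians on the plus strand were 89.8%, 52.6% and 78.0%, and *Dnmt3b* KO was not above *Dnmt3a* KO in 51 of 705 windows (7.23%). In the reads that had not selected them, *Dnmt3b* KO was thus above *Dnmt3a* KO in most of these windows.

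The held-out values also differed by CpG count. When the strands were held out, the CpG-rich windows (20 or more reference CpGs) had a *Dnmt3b* KO median of 57.6% or 58.4% against 48.9% or 43.9% in *Dnmt3a* KO ESCs, with *Dnmt3b* KO not above in 18 of 98 (18.4%) or 26 of 151 (17.2%). In CpG-poor windows this share was 3.98% or 4.51%. Neighbouring CpGs of a window lie on the same reads, so that a split by CpG is not independent of the selection, and less so where CpGs are dense. With selection on odd-numbered CpGs and measurement on even-numbered ones, the 129 windows with 20 or more reference CpGs had medians of 77.2% in WT ESCs, 44.5% without *Dnmt3a* and 44.6% without *Dnmt3b*, and *Dnmt3b* KO was not above *Dnmt3a* KO in 70 (54.3%). The 105 windows with fewer CpGs had medians of 83.6%, 49.6% and 60.9%, with *Dnmt3b* KO not above in 20 (19.05%). Over all windows of WT at least 70%, of any CpG count, this share was 0.593%, and it was not taken for CpG-rich windows alone. In all reads of the chromosomes with WT values, at any WT level, the share was 0.796% with 5 to 9 CpGs and lowest with 10 to 14 (0.308%). It was 0.354% with 15 to 19 CpGs, 1.16% with 20 to 29, 7.26% with 30 to 49 and 26.2% with 50 or more. The last were nearly unmethylated, with medians of 0.638% without *Dnmt3a* and 1.21% without *Dnmt3b*.

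**Figure D1:**
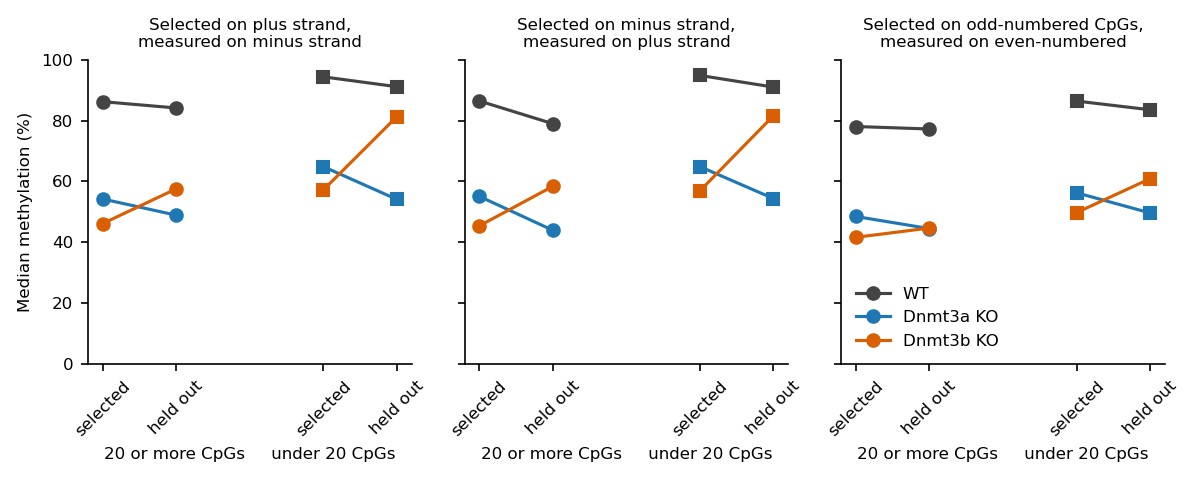
Median methylation (%) of windows selected by the rule, in the data used for the selection and in the data held out, for windows with 20 or more CpGs (circles) and under 20 (squares); black, blue and orange are WT, *Dnmt3a* KO and *Dnmt3b* KO ESCs. *Dnmt3b* KO was at 81.3% and 81.6% on the held-out strand in windows under 20 CpGs, and within 1 point of *Dnmt3a* KO (44.6% and 44.5%) on held-out CpGs in windows with 20 or more.

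CpGs of the members that had too few reads to be counted were read as well, although they lie beside the counted ones and partly on the same reads. In members with 20 or more CpGs, 1364 such CpGs with reads in every genotype were methylated in 75.3% of 7982 reads in WT ESCs, 48.5% (95% Wilson interval 47.3 to 49.7) of 6365 reads without *Dnmt3a* and 47.6% (46.5 to 48.7) of 7574 reads without *Dnmt3b*. In the other members 315 such CpGs were at 78.7%, 46.4% (44.3 to 48.5) and 64.1% (62.1 to 66.0). In the CpG-rich members the KOs could not be separated, and in the CpG-poor ones *Dnmt3b* KO was the higher. The order of the KOs that the rule required was not kept by the medians on the held-out strand, at either CpG count, nor by the pooled reads at uncounted CpGs of the CpG-poor members. The 744 members are therefore described below as the windows that met the rule.

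The members formed a CpG-poor and a CpG-rich group. There were 541 with 5 to 9 reference CpGs, 66 with 10 to 19 and 137 with 20 or more. Windows with 20 or more CpGs made up 18.4% of the members, 13.7% of the shared-loss windows and 5.84% of all windows of WT at least 70%, and their share was above the last in 12 of 14 chromosomes and above that of the shared-loss windows in 10. The share of windows that were members was 0.0989% with 5 to 9 CpGs, 0.0148% with 10 to 14 and 0.0222% with 15 to 19. It was 0.102% with 20 to 29, 0.706% with 30 to 49 and 6.53% with 50 or more (25 of 383 windows). Most CpG-poor members rested on few CpGs, since 358 of the 744 had exactly 5 counted.

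**Figure D2:**
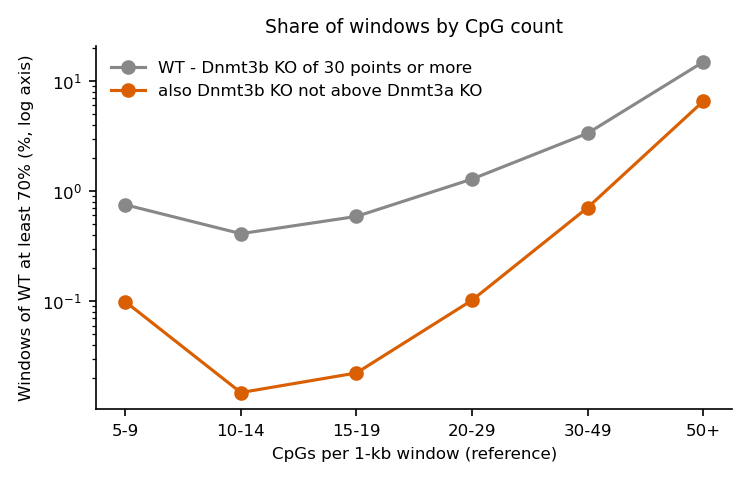
Share of windows of WT at least 70% (%, log axis) by the number of CpGs in the reference window, for all windows with a loss of 30 points or more in *Dnmt3b* KO ESCs (grey) and for the members (orange). The share of members was lowest at 10 to 14 CpGs (0.0148%) and highest at 50 or more (6.53%).

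Depth was lower in the members. The median depth of a member's counted CpGs was 16.9 reads in *Dnmt3b* KO ESCs against 23.0 in all windows of WT at least 70%, and it was lower in 14 of 14 chromosomes. In the CpG-rich members it was 14.25 reads, against 25 in all CpG-rich windows. The part of depth in the choice of the members was not tested.

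In the CpG-rich members the median was 79.8% in WT ESCs, 49.8% without *Dnmt3a* and 43.5% without *Dnmt3b*. In all windows of WT at least 70% with 20 or more CpGs the medians were 92.5%, 59.7% and 87.1%, so that WT and both KOs were lower in the members. Their GC content had a median of 53.0% against 49% in those windows. None of the 744 members had both a GC content of 55% or more and an observed-to-expected CpG ratio of 0.65 or more, values usual for CpG islands. Such windows were only 71 of the 998003, so their absence does not set the members apart. The CpG-poor members had a median GC content of 38.8% against 42.9% for windows with as few CpGs.

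Members lay mostly outside genes. Their centres were intergenic in 553 of 744 (74.3%), against 54.1% of all windows of WT at least 70% and 47.3% of the shared-loss windows. Introns held 163, exons 18, distal promoters (500 to 3000 bp upstream of the TSS) 8 and proximal promoters (within 500 bp) 2. The share in genes and promoters was lower than in all windows in 14 of 14 chromosomes. The median distance to the TSS of a protein-coding gene was 138 kb, against 54.8 kb and, in shared-loss windows, 32.8 kb. A window of WT methylation under 30% lay within 2 kb of 26 members (3.49%), close to the 3.10% of all windows, whereas 13.4% of the shared-loss windows had such a neighbour.

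Members were rich in repeated sequence. In 207 of 744 (27.8%), at least 50% of the 24-base stretches occurred 10 or more times in the genome, against 8.24% of every 100th window of WT at least 70% and 5.09% of the shared-loss windows. The share was above the genome sample in 14 of 14 chromosomes. Among the CpG-rich members it was 76.6% (105 of 137), against 22.4% of all CpG-rich windows in the sample. Fewer than 80% of the reference CpGs could be counted in 67.9% of the CpG-rich members, against 11.04% of all CpG-rich windows.

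Shared sequence 1 was present in 94 members, 85 of which had 20 or more CpGs. It occurred 6549 times in the genome, and 1656 windows of WT at least 70% held it. In those windows the medians were 80.5% in WT ESCs, 55.2% without *Dnmt3a* and 63.7% without *Dnmt3b*, and 5.68% were members. The 1562 windows with this sequence that were not members had medians of 80.5%, 55.7% and 64.5% in the same order. All windows of WT at least 70% with 30 to 49 CpGs had 92.7%, 69.2% and 87.8%, and those with 50 or more had 88.0%, 59.4% and 73.2%. The WT and *Dnmt3a* KO medians were thus lower with the sequence too. Shared sequence 2 was in 19 members and 618 windows of WT at least 70%, with medians of 81.6%, 52.7% and 68.9%. These were 618 of the 1906 eligible windows that held it, so the WT median was raised by the 70% condition. Shared sequence 3 was in 18 members and 304 windows of WT at least 70%, of 483 eligible ones, with medians of 85.4%, 61.4% and 71.9%.

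Chromosomes 5 to 9, X and the rest of chromosome 4, without WT values, had no part in the choice of members. There, 714 windows with shared sequence 1 had medians of 60.1% without *Dnmt3a* and 70.3% without *Dnmt3b*. The *Dnmt3b* KO level was not above that of *Dnmt3a* KO in 164 of them (23.0%), against 1.13% of all 504205 windows there. Without chromosome X the share of all windows was 1.00%, and the share with the sequence was not taken without X. The share of windows not above depended on CpG count in windows of any sequence. Windows with and without the sequence were therefore set side by side at like counts. With 30 to 49 CpGs it was 32.1% (85 of 265) with the sequence and 5.90% without, at unlike *Dnmt3a* KO medians of 58.1% and 26.9%. With 50 or more CpGs it was 37.7% (23 of 61) with the sequence and 27.6% without, but the windows without it were nearly unmethylated, with a *Dnmt3a* KO median of 0.660%. Among windows with *Dnmt3a* KO of at least 40%, the shares were 36.7% (83 of 226) and 1.92% at 30 to 49 CpGs. At 50 or more they were 51.4% (19 of 37) and 14.5%. This limit itself uses 1 of the 2 levels compared. The shares that follow are again without it. With 30 to 49 CpGs the share was 26.6% (78 of 293) with shared sequence 2 against 5.99% without it, and 26.5% (36 of 136) with shared sequence 3 against 6.33%. The sequences were picked from the members, and these differences were not tested.

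A profile around shared sequence 1 was drawn over all its copies, turned to the same direction. In the 500 bp before it, *Dnmt3b* KO ESCs were at 52.2%, *Dnmt3a* KO at 49.4% and WT at 75.2%, and in the 500 bp after it at 53.3%, 48.2% and 74.3%. At 9500 to 10000 bp before it the levels were 78.3%, 55.8% and 85.9%. On these chromosomes, which hold the members, the *Dnmt3b* KO level thus fell by far more towards the sequence than the *Dnmt3a* KO level did, and WT fell too. On the chromosomes 5 to 9 and X, *Dnmt3b* KO was at 66.2% and *Dnmt3a* KO at 58.5% in the 500 bp before the sequence, and at 61.9% and 55.9% in the 500 bp after it.

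**Figure D3:**
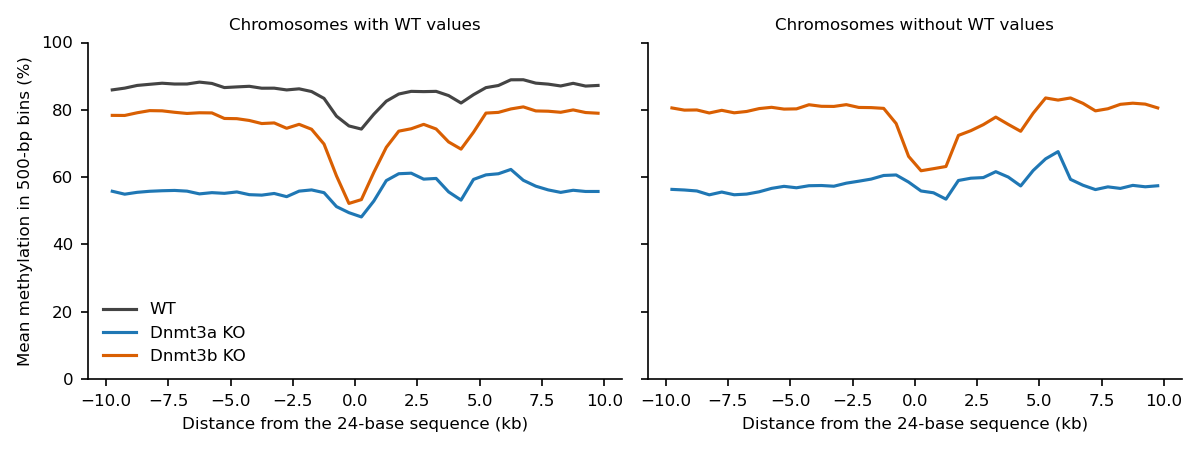
Mean methylation (%) of CpGs in 500-bp bins by distance (kb) from copies of shared sequence 1, on chromosomes with WT values (left) and on chromosomes 5 to 9 and X (right); black, blue and orange are WT, *Dnmt3a* KO and *Dnmt3b* KO ESCs. In the 500 bp before and after the sequence, *Dnmt3b* KO was at 52.2% and 53.3% on the left and at 66.2% and 61.9% on the right, above *Dnmt3a* KO in each.

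Depth at the repeated copies differed by chromosome. In windows with shared sequence 1, the mean depth in *Dnmt3b* KO ESCs was 33.3 to 48.0 reads per CpG on chromosomes 10 to 14 and 4.44 to 7.93 on chromosomes 5 to 9 and X, while the median depth of all CpGs was 20 to 22 on the former and 9 to 21 on the latter. The *Dnmt3b* KO level was 48.2% to 53.3% on the former and 65.6% to 69.1% on the latter, and *Dnmt3a* KO was at 44.97% to 48.4% and 57.3% to 60.6%. Between these ends the mean depth was 14.2 to 25.3 reads on chromosomes 15 to 19 and 7.36 to 14.8 on chromosomes 1 to 4, so that depth was highest on chromosomes 10 to 14, lower on 15 to 19, lower still on 1 to 4 and lowest on the rest, with ranges that overlapped between neighbours in this order except the first pair. The part of read placement among copies in the levels of the repeated members was not tested.

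Members were also split by their repeated sequence. Of 151 members with 10 or more counted CpGs, 63 had less than 50% repeated 24-base stretches, and 39 of these (61.9%) were in a gene or promoter, against 22 of 88 (25%) repeated ones. The genic share was 72.7% in shared-loss windows and 53.2% in all windows of WT at least 70%, each with 10 or more counted CpGs. Of the 63, 20 (31.7%) were within 5 kb of a TSS, against 26.7% of those shared-loss windows and 9.19% of all windows. A window of WT methylation under 30% lay within 2 kb of 16 (25.4%), against 20.1% and 4.10%. The shared-loss windows were thus also more often near a TSS or such a window than all windows were. For the 39 in genes or promoters the medians were 80.5% in WT ESCs, 45.5% without *Dnmt3a* and 40.4% without *Dnmt3b*. None of the 88 repeated members had a window of WT methylation under 30% within 2 kb.

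The member with 10 or more counted CpGs and the largest loss was in an intron of *Gtse1*, a microtubule-binding protein of the cell cycle (chr15:85693001-85694000). Its methylation was 92.9% in WT ESCs, 38.5% without *Dnmt3a* and 34.2% without *Dnmt3b* over 21 CpGs. The read intervals were 90.4% to 95.1%, 34.2% to 42.7% and 29.5% to 37.7%, so the KOs overlapped and both were far from WT. All 21 CpGs were lower than WT in either KO, and 10 of 21 were lower in *Dnmt3b* KO than in *Dnmt3a* KO ESCs.

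*Usp21*, a deubiquitinating enzyme, held the next window (chr1:173215001-173216000, exon). It was at 83.3%, 43.7% and 29.3% (WT, *Dnmt3a* KO, *Dnmt3b* KO) as means over 24 CpGs. Over pooled reads, those that chose the window, *Dnmt3a* KO was at 43.4% and *Dnmt3b* KO at 33.3%. The intervals of these read shares were 39.2% to 47.7% and 29.5% to 37.3%. Here 16 of 24 CpGs were lower in *Dnmt3b* KO than in *Dnmt3a* KO ESCs, and 13 of 24 were under 20% in *Dnmt3b* KO against 4 in *Dnmt3a* KO ESCs.

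The other genes among the 10 largest losses had levels in the KOs that were far below WT. The window in *Dnttip2*, which encodes a nucleolar protein, was at 72.4%, 27.9% and 19.3% (WT, *Dnmt3a* KO, *Dnmt3b* KO). That in *Kpnb1*, the nuclear import receptor importin beta, was at 74.4%, 23.9% and 21.7%. That in *Ddx21*, a nucleolar RNA helicase, was at 79.4%, 28.96% and 27.1%. In *Smarcd1*, a subunit of the SWI/SNF chromatin remodeling complex, the levels were 87.1%, 53.8% and 36.1%, with KO intervals of 47.4% to 58.9% and 28.9% to 39.5%. In *Hspa5*, the chaperone BiP of the endoplasmic reticulum, they were 90.8%, 44.5% and 41.0%. The KO intervals overlapped in *Kpnb1*, *Ddx21*, *Dnttip2* and *Hspa5*, and were apart in *Smarcd1*.

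*Slc38a2*, a sodium-coupled transporter of neutral amino acids, had 4 members, the most of any gene, and they formed the longest run (chr15:96523001-96527000). From the far end of the run towards the promoter the *Dnmt3b* KO level was 45.7%, 53.4%, 51.1% and 26.0%, with *Dnmt3a* KO at 54.4%, 55.8%, 56.6% and 29.8% and WT at 84.5%, 90.4%, 90.1% and 78.9%. The next window was at 68.5% in WT, just too low for the rule, 28.6% without *Dnmt3a* and 8.84% without *Dnmt3b*. The promoter window was unmethylated in all 3 (0.861%, 0.311% and 0.476%). Beyond the run on the other side, *Dnmt3b* KO was above *Dnmt3a* KO again, at 52.8% against 50.0% and 53.0% against 43.9%.

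**Figure D4:**
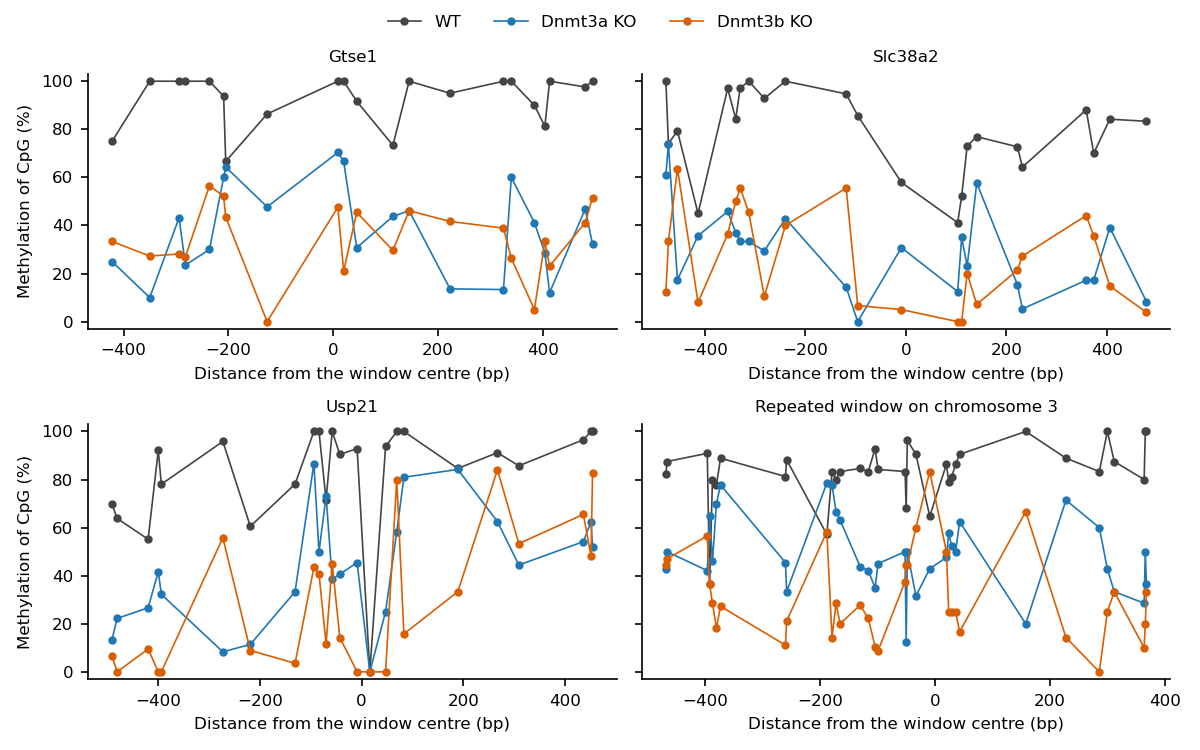
Methylation (%) of each counted CpG by distance (bp) from the window centre in the windows of *Gtse1*, *Slc38a2* and *Usp21* and in a repeated window of chromosome 3; black, blue and orange are WT, *Dnmt3a* KO and *Dnmt3b* KO ESCs. The KOs cross in *Gtse1* (10 of 21 CpGs lower in *Dnmt3b* KO) and *Dnmt3b* KO is mostly the lower in the repeated window (27 of 35).

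Windows with the widest gap between the KOs were mostly repeated. The repeated window of chromosome 3 shown above (chr3:6305001-6306000, intergenic) was at 83.7% in WT ESCs, 49.3% without *Dnmt3a* and 31.3% without *Dnmt3b* over 35 of its 51 CpGs. Its KO read intervals were 45.1% to 54.0% and 25.9% to 34.4%, and 27 of 35 CpGs were lower in *Dnmt3b* KO ESCs. The second repeated window among the 10 largest losses (chr4:52099001-52100000, intergenic) had levels of 74.3%, 30.4% and 23.7% but only 12 of 59 CpGs counted and overlapping KO intervals.

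The widest gap with 10 or more counted CpGs was in an intron of *Sntg1*, a syntrophin (chr1:9111001-9112000), with 78.8% in WT ESCs, 64.1% without *Dnmt3a* and 36.7% without *Dnmt3b*. Its gap of 27.4 points was a mean over CpGs. Over pooled reads the levels were 92.9%, 76.4% and 69.0%, and the KO intervals of 69.6% to 82.1% and 62.3% to 74.9% overlapped. A single CpG, at 100% in all 3 genotypes, held 133, 64 and 113 of the window's 197, 174 and 203 reads and raised the pooled levels. Next came an intergenic window (chr3:5070001-5071000) with 96.96%, 74.7% and 53.1%. The windows in introns of *Asph*, an aspartate hydroxylase, and *Olfm3*, an olfactomedin, had gaps of 18.6 points each, with *Dnmt3b* KO at 38.3% and 42.9%. The remaining windows of this order, on chromosomes 1, 3 and 15, had gaps of 17.5 to 20.4 points, and *Smarcd1* was the only 1 of the 10 with no repeated 24-base stretch.

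Most members had no member beside them. The 744 formed 732 runs, of which 722 were single windows, 10 had 2 or more and 1 had 3 or more. Members were only 0.0745% of the 998003 windows that met the WT condition, so few neighbours would be met by random placement as well. The number of neighbours under random placement was not taken. These counts therefore do not show that members were next to each other less often than by chance. Besides the run of *Slc38a2*, the first runs of 2 in order of chromosome name were chr13:107170001-107172000, chr15:13950001-13952000 and chr15:35046001-35048000, followed by 1 on chromosome 18.

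Windows beside the members, most of which the rule did not select, had a smaller loss. At 1 kb from a member, the mean loss in *Dnmt3b* KO ESCs was 12.0 points, against 36.6 in the members, and it was 9.25 at 2 kb and 7.92 at 10 kb. All windows of WT at least 70% had 6.72 in the window and 6.68 at 1 kb. In *Dnmt3a* KO ESCs the loss was 29.995 points in the members, where the rule used the *Dnmt3a* KO level, and 31.5 at 1 kb. Around CpG-rich members the loss at 1 kb in *Dnmt3b* KO ESCs was larger, at 17.2 points.

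**Figure D5:**
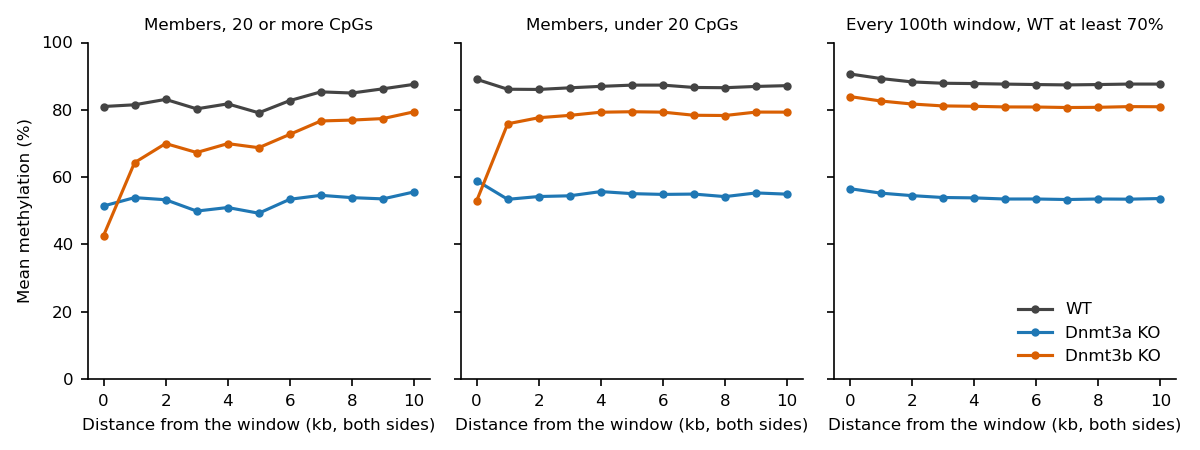
Mean methylation (%) by distance (kb) from the window for CpG-rich members (20 or more CpGs), CpG-poor members and every 100th window of WT at least 70%; black, blue and orange are WT, *Dnmt3a* KO and *Dnmt3b* KO ESCs. At 1 kb the loss in *Dnmt3b* KO was 10.3 points beside CpG-poor members and 17.2 points beside CpG-rich ones, against 36.2 and 38.4 points in the members.

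The bases after the CpG differed in the members. Read on each strand by its own sequence, CGA made up 31.3% of their counted CpGs and CGG 31.8%, against 24.6% and 27.4% over all windows of WT at least 70%. CGC made up 16.8% and CGT 20.04%, against 18.99% and 29%. The share of CGA was above that of all windows in 14 of 14 chromosomes, and that of CGC below in 11. Over all reference CpGs of the members, counted or not, CGC was below in 10. There its share per chromosome was 16.7% to 23.2% in the members, around the 20.4% to 21.4% of all windows, so the lower CGC share was less clear. Of the 2467 uncounted CpGs, 2043 were in CpG-rich members, and this share was not taken by CpG count. In CpG-poor members CGA made up 36.7% and CGC 11.2%, against 25.1% and 18.2% in all CpG-poor windows. In CpG-rich members CGA made up 24.2% and CGC 24.19%, against 21.6% and 23.5% in all CpG-rich windows, so CGC was not lower there. In the shared-loss windows CGA was at 25.5%.

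The levels by this base within the members come from the reads that chose them and are given as a description. *Dnmt3a* KO minus *Dnmt3b* KO was 8.69 points at CGA and 8.59 at CGG, but 2.53 at CGT and -3.86 at CGC, where *Dnmt3b* KO ESCs kept 54.8% and *Dnmt3a* KO ESCs 50.9%. At 10 or more reads per strand the CGT difference was -0.30. Over all windows of WT at least 70%, nearly all of them no members, CGA also had the largest and CGC the smallest loss, with a drop in *Dnmt3b* KO ESCs of 8.68 points at CGA, 6.57 at CGG, 6.41 at CGT and 4.13 at CGC. On chromosomes 5 to 9 and X, *Dnmt3a* KO minus *Dnmt3b* KO was -22.7 points at CGA, -22.8 at CGG, -29.2 at CGC and -29.4 at CGT.

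Single CpGs in the members were mostly partly methylated in both KOs. Of 4333 CpGs with 10 or more reads in every genotype, 68.4% were at 80% or more in WT ESCs, 14.6% without *Dnmt3a* and 14.7% without *Dnmt3b*. Under 20% were 0.346%, 7.52% and 13.5%. These CpGs are among those that chose the members, so the levels were largely set by the rule. No other windows were read in this way for comparison.

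Few genes held members. Of 14140 protein-coding genes with an eligible window in the body or 3 kb upstream, 184 (1.30%) held a member and 13 held 2 or more. After *Slc38a2* came *Adamts12*, a secreted metalloprotease, and *Lrrc4c*, a netrin-G ligand, with 3 members each. Genes with 2 members each included *Sntg1*, *Prl3d3* (a placental prolactin-family hormone), *2210408I21Rik*, *Nrg3* (a neuregulin), *Stk3* (a Hippo pathway kinase) and *Emr1* (the macrophage receptor F4/80). *Lrrc4c* had 359 windows of WT at least 70% and *Slc38a2* 9, so the count per window was far higher in the latter.

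Gene lists were read against the 1.30% of all genes. None of 36 germline genes, whose promoters are methylated in somatic cells, held a member, nor did any of 28 pluripotency and chromatin genes, 4 genes of the ICF syndrome and its partners, 66 histone genes or 93 keratin genes. A single gene with a member was found among ribosomal proteins (*Rps10*, 1 of 98), zinc finger genes (*Zfp804a*, 1 of 189) and protocadherins (*Pcdh9*, 1 of 33). Among 710 olfactory and vomeronasal receptor genes, *Olfr786*, *Olfr406-ps* and *Olfr1095* held a member (0.423%). Receptor and ribosomal protein genes hold few windows each. Per window of WT at least 70%, members were 0.154% of receptor windows (3 of 1942) and 0.124% of ribosomal protein windows (1 of 807). Over all protein-coding genes this was 0.0419%. The order of the receptor genes thus depended on the measure. The lists with no gene or 1 gene are too small to be told from all genes by these counts.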

How the data were processed

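WGBS was done on 9 libraries, 3 for each genotype of J1 ESCs (WT and the KOs of *Dnmt3a* or *Dnmt3b*). The authors aligned paired-end reads to mm9 with BSMAP, removed end-repair bases, clonal reads and overlapping mate segments with BSeQC, and counted total and unconverted reads per CpG and strand with MOABS. The deposited values are these read counts, not normalized, with the libraries of a genotype merged in 1 table. The other deposited columns are parts of the same counts (methylated reads and reads of each strand).

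A CpG's methylation was its methylated reads divided by all reads, and a window's level was the mean over its CpGs that had 5 or more reads in all genotypes. Counted CpGs of the members held 135481 reads in WT ESCs, 121117 without *Dnmt3a* and 125436 without *Dnmt3b*. Python 3.11.15, NumPy 2.4.6 and pandas 2.3.3 were used with the mm9 sequence and GENCODE M1 genes, and 24-base stretches were counted on both strands. Intervals are 95% Wilson intervals of pooled reads and cover counting error only. They are too narrow even for that, since a read over several CpGs was counted at each of them. The scripts were tested on simulated data. The rule for named windows took, with 10 or more counted CpGs, the 10 largest losses and the 10 widest gaps, the 10 genes with most members, and the 5 longest runs. Settings of the rule were varied as given in the closing section. The members and lists were chosen with earlier results of these data known. Chromosomes 5 to 9, X and the rest of chromosome 4 were not analysed in WT. A gene that the rule would name is not reported here.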

Additional observations from a re-analysis of the deposited data

Results flagged for a closer look

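Where WT values were lacking (chromosomes 5 to 9, X and the rest of chromosome 4), which the choice of members did not use, 23.0% of the windows with shared sequence 1 had *Dnmt3b* KO not above *Dnmt3a* KO ESCs, against 1.13% of all windows there. Without chromosome X the share of all windows was 1.00%, and the share with the sequence was not taken without X. At 30 to 49 CpGs the share was 32.1% with the sequence and 5.90% without it, and at 50 or more CpGs 37.7% and 27.6%. Windows without it were less methylated, with *Dnmt3a* KO medians of 26.9% and 0.660% at these counts. Among windows with *Dnmt3a* KO of at least 40%, the shares were 36.7% and 1.92% at 30 to 49 CpGs, and 51.4% and 14.5% at 50 or more. The median depth of the 714 windows was 12.4 reads per counted CpG in *Dnmt3b* KO ESCs. Over all CpGs of windows with the sequence, mean depth in *Dnmt3b* KO ESCs was 4.44 to 7.93 reads on chromosomes 5 to 9 and X and 33.3 to 48.0 on chromosomes 10 to 14, and the part of read placement among copies in the share was not tested. There were no control samples besides WT, and the difference was not tested.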

How the results depend on the processing

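No paired analysis was possible because the libraries of each genotype were merged, and for the same reason no replicate could be left out. The number of members was 424 with 10 reads per CpG, 151 with 10 CpGs per window, 2248 with a loss of at least 0.2, 155 with 0.4, 165 with *Dnmt3b* KO at least 0.1 below *Dnmt3a* KO, and 1253 or 1166 on plus- or minus-strand reads alone, where fewer reads stood behind each CpG. It stayed within 1.5 times 744 with read weighting, WT of at least 0.8, a shifted grid and CpGs over 200 reads left out. The share with 20 or more CpGs was 27.4% with 10 reads, 72.8% with 10 CpGs, 15.7% with read weighting, 14.8% and 27.1% with losses of 0.2 and 0.4, and 11.2% with WT of at least 0.8. The intergenic share was 67.7% with 10 reads, 59.6% with 10 CpGs, 66.5% with a loss of 0.4 and 69.1% on the shifted grid. Median levels, in the order WT, *Dnmt3a* KO, *Dnmt3b* KO, were 90.3%, 53.4% and 79.6% on the held-out minus strand, 89.8%, 52.6% and 78.0% on the held-out plus strand, and 79.1%, 46.4% and 48.8% on even-numbered CpGs. The mean loss at 1 kb was 10.7 points for members with no other member within 5 kb. With 10 reads per strand, *Dnmt3a* KO minus *Dnmt3b* KO at CGT turned to -0.30 points. The cause of these shifts was not tested. The uncounted CpGs, the windows without WT values and their split by CpG count and *Dnmt3a* KO level were chosen after seeing the data. So were the held-out split by CpG count and the counted CpGs per chromosome.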
